A study of Mus musculus with 9 samples.

Results

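The genes described here are 5 cytosolic sensors of nucleic acids and the adaptor that the sensors RIG-I and MDA5 signal through. They are *Ddx58* (the protein RIG-I), *Ifih1* (MDA5), *Dhx58* (LGP2), *Zbp1* (ZBP1), *Eif2ak2* (PKR) and *Mavs* (MAVS), chosen by name and found as 6 rows among the 55471 genes of the deposited counts. All 6 passed the filter on low counts and were tested. *Mavs* is not itself a sensor, and its values are set apart from those of the 5 sensors wherever they are counted.

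RNA was sequenced from dendritic cells (DCs) that were grown from wild-type mouse bone marrow with GM-CSF, a growth factor that yields DC-like cells in culture. One group was left unstimulated, one received LPS at 100 ng/mL and one received IFN-β at 1000 U/mL, each for 6 h, with 3 libraries per group marked A, B and C. LPS, a component of the bacterial outer membrane, is sensed by the receptor TLR4, whereas IFN-β is a cytokine of the type I interferon family. The mice were C57BL/6 females aged 8 to 20 weeks. The labels do not say whether the 3 libraries of a group were separate animals or cultures, so p-values measure the spread between these libraries, which may be technical.

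RIG-I and MDA5 are RNA helicases that recognize double-stranded RNA in the cytosol, RIG-I by its 5′ end and MDA5 along long stretches, and both then bind MAVS on the mitochondrial outer membrane. MAVS forms filaments that recruit the kinases TBK1 and IKKε, which activate the transcription factors IRF3 and IRF7 and so the production of type I interferon. LGP2 is a relative that lacks the domains needed to bind MAVS and tunes the other helicases, ZBP1 binds Z-form nucleic acids and starts cell death through RIPK3, and PKR binds double-stranded RNA and stops translation by phosphorylating eIF2α. Interferon signals through the transcription factor complex ISGF3, which binds DNA elements with repeated GAAA letters (the ISRE), and the 5 sensors are known as interferon-stimulated genes.

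The libraries held 33425803 to 43735199 assigned counts each. Levels are given as CPM, the counts of a gene per 1000000 counts of its library after scaling with TMM factors, which correct for composition. The factors ranged from 1.18 to 1.26 without stimulation, whereas the LPS libraries had 0.783 to 0.841 and the IFN-β libraries 0.977 to 1.02. Without these factors the median of all tested genes shifts by -0.58 on the log2 scale for LPS, by -0.31 for IFN-β and by 0.27 between the stimuli, and the changes below are relative to the scaled libraries. The DC marker list summed to between 4330 and 6729 CPM in the 9 libraries and the macrophage list to between 1428 and 2247 CPM, and no B, T, NK or mast cell list exceeded 0.354 CPM. Granulocyte markers summed to at most 21.2 CPM, and of the 3 erythroid markers 2 were at 0 in every library. A list for plasmacytoid DCs, known for strong interferon production, summed to between 36.4 and 44.2 CPM without stimulation, between 209 and 255 CPM with LPS and between 73.2 and 95.7 CPM with IFN-β, and its part in the results was not tested. That sum was nearly all *Tcf4*, while *Siglech*, the defining marker, was at most 0.0253 CPM. In bulk RNA a change in the share of a cell type and a change in RNA per cell cannot be told apart.

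Promoters are shown first, searched for the letters that ISGF3 is known to bind. Windows of 300 bases, from 250 before to 50 after the start of transcription, were taken from RefSeq on GRCm38.p6 and were found for 4 of the 6 genes, all but *Dhx58* and *Zbp1*. The ISRE core, spelled GAAANNGAAA and searched on both strands, was present in the windows of *Ifih1*, *Ddx58* and *Eif2ak2* and not in that of *Mavs*. Of 32851 promoters of the same length, 3.44% held it. All 3 matches lay after the start, at bases 33 to 42 in *Ifih1*, 3 to 12 in *Ddx58* and 19 to 28 in *Eif2ak2*, and none lay in the bases before the start, where 2.98% of promoters held the core. The matches are printed with their flanks on the strand of the gene, which is the minus strand for all 3, with the core in capitals. In *Ddx58* the core reads on the opposite strand, so it appears as its reverse complement.
Ifih1, chr2:62646206-62646233: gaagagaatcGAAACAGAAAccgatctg
Ddx58, chr4:40239804-40239833: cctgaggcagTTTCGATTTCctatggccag
Eif2ak2, chr17:78882535-78882564: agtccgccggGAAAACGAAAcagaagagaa

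The GAS core, another element of interferon signalling, spelled TTCNNNGAA, was found in 1 of the 4 windows, that of *Eif2ak2*, from base -178 to base -170 counted from the start. Of all promoters 8.30% held it. It did not overlap the ISRE core and is printed with its flanks on the minus strand, the core in capitals. The κB consensus, the element of NF-κB, was in none of the 4 windows and in 6.93% of all promoters, which says only that those letters were not in these windows.
Eif2ak2, chr17:78882732-78882760: ctgcagagctTTCCCAGAAtggaagccag

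The bases just before the start are shown for *Ifih1*, the gene with the greatest rise among the 6, and for *Mavs*, which fell. Single repeats of GAAA or its reverse complement TTTC are in capitals, a marking chosen after the promoters were read. The 300-base window of *Ifih1* held 8 such repeats, a number reached by 3.98% of promoters. The window of *Ddx58* held 10 (0.86% of promoters hold as many), that of *Eif2ak2* 6 (13.9%) and that of *Mavs* 0, where the median promoter held 3. These window counts include the repeats within the ISRE cores. In the 150 bases before the start alone, *Ifih1* held 5 repeats and *Ddx58* 4. *Eif2ak2*, which also rose, held 1 there and *Mavs* 0. A match is a description of letters and not a bound site.
Ifih1, minus strand, chr2:62646256-62646405: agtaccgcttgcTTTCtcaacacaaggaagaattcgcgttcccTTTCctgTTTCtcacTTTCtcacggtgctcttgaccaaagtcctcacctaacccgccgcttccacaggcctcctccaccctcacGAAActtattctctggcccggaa
Mavs, plus strand, chr2:131233913-131234062: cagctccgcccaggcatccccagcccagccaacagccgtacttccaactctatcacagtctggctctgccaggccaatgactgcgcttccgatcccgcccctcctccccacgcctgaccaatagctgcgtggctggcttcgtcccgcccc

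All 5 sensors rose with LPS and with IFN-β, while *Mavs* fell with both. With LPS the rises ran from 4.23-fold for *Eif2ak2* to 19.98-fold for *Ifih1*, and *Mavs* fell 2.47-fold. With IFN-β the rises ran from 3.06-fold for *Eif2ak2* to 7.64-fold for *Ifih1*, and *Mavs* was 1.27-fold lower. Of all tested genes, 32.8% were called higher and 35.4% lower with LPS, and 23.6% were called higher and 23.3% lower with IFN-β. The 3 libraries of a group did not overlap those of the other for any of the 6 genes in either comparison, which also held for 72.4% of all genes with LPS and for 58.1% with IFN-β. Both comparisons use the same 3 unstimulated libraries, so they are not independent of each other. Calls rest on the quasi-likelihood test of edgeR, with p-values adjusted over 16260 genes by the Benjamini-Hochberg method and a threshold of 0.05. An exact permutation test on 1 gene cannot pass 0.05 with 3 libraries against 3, where its smallest p = 0.1, the value found for each of the 6 genes.

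**Figure D1:**
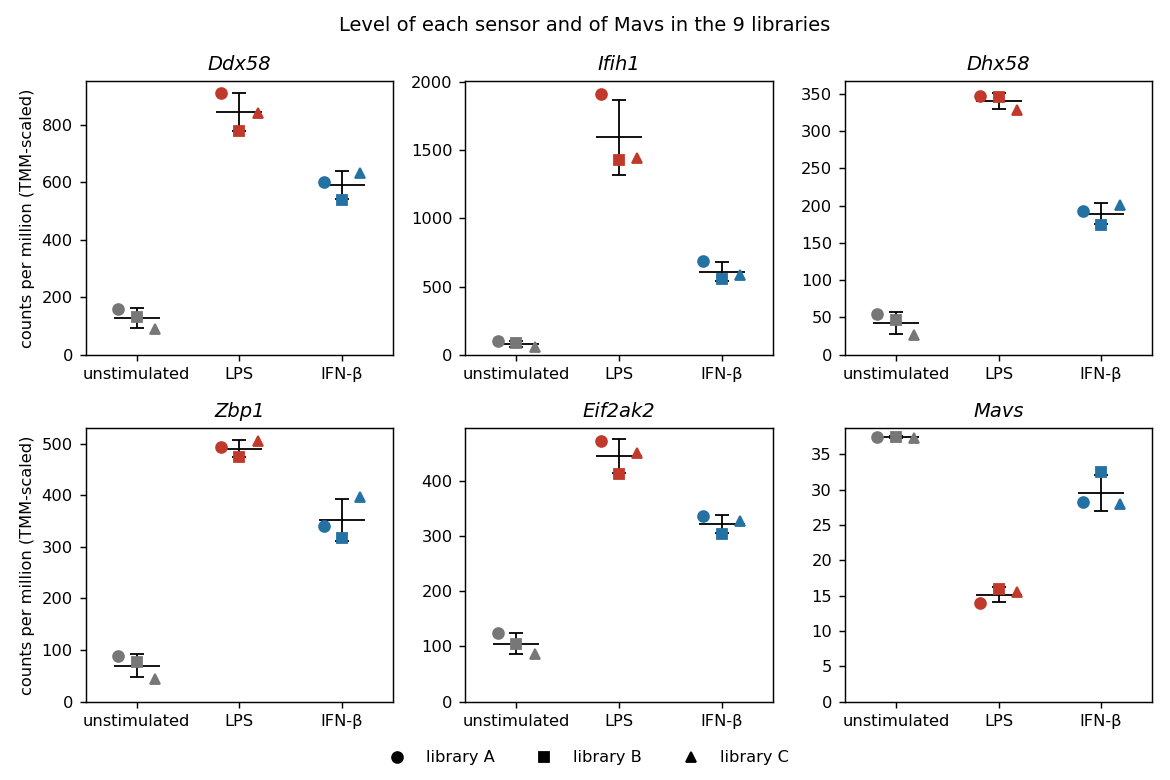
Level of each of the 6 genes in CPM (TMM-scaled, axis from 0) in the 9 libraries, with the mean and SD of 3 libraries per group in black and the library letter as the symbol. The 5 sensors are lowest without stimulation and highest with LPS, while Mavs runs from 37.3 to 37.5 without stimulation down to between 13.9 and 16.0 with LPS.

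*Ifih1* encodes MDA5, the helicase that forms filaments on long double-stranded RNA. The gene lies on chr2:62595798-62646255, minus strand, on GRCm38, and its merged exons add up to 8.165 kb. It was at 99.8, 85.9 and 53.9 CPM in the A, B and C libraries without stimulation, at 1916, 1428 and 1442 CPM with LPS, and at 691, 552 and 587 CPM with IFN-β. The 3 groups stood well apart, with the LPS libraries far above those of IFN-β. The log2 fold change was 4.32 ± 0.23 (SE) with LPS (edgeR adjusted p = 6.1e-08) and 2.93 ± 0.22 with IFN-β (edgeR adjusted p = 4.0e-06). These ranked 256 and 212 from the highest among the 16260 genes tested, the highest rank of the 6 genes in both comparisons.

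*Ddx58* encodes RIG-I, the helicase that recognizes RNA with a 5′ triphosphate end. It lies on chr4:40203773-40239828, minus strand, with 7.05 kb of merged exons. Its level was 158, 132 and 90.8 CPM in the A, B and C libraries without stimulation, 910.4, 779 and 839.9 CPM with LPS, and 601, 537 and 630.4 CPM with IFN-β. The groups did not overlap, and the stimulated libraries differed among themselves by 1.17-fold at most within a group. The log2 fold change was 2.73 ± 0.18 (SE) with LPS (edgeR adjusted p = 2.1e-07) and 2.22 ± 0.17 with IFN-β (edgeR adjusted p = 5.3e-06).

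*Dhx58* encodes LGP2, the third RIG-I-like receptor, which has no signalling domain of its own. It lies on chr11:100694884-100704271, minus strand, with 3.272 kb of merged exons, 141 bases of which (4.31%) are shared with the antisense gene *Dhx58os*. The antisense gene had at most 6 counts in any library, against at least 1162 for *Dhx58*, although the strand setting of the counting is not known. *Dhx58* was at 54.8, 46.0 and 26.2 CPM in the A, B and C libraries without stimulation, at 348, 345 and 328 CPM with LPS, and at 193, 173 and 200.4 CPM with IFN-β. The LPS libraries were the most alike of any group for this gene, with a coefficient of variation of 3.14% against 34.6% without stimulation. The log2 fold change was 3.01 ± 0.22 (SE) with LPS (edgeR adjusted p = 4.9e-07) and 2.16 ± 0.21 with IFN-β (edgeR adjusted p = 2.0e-05).

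*Zbp1* encodes a sensor of Z-RNA and Z-DNA that leads to necroptosis through RIPK3 and MLKL. It lies on chr2:173206612-173218923, minus strand, with 3.529 kb of merged exons. It was at 88.6, 77.0 and 44.6 CPM in the A, B and C libraries without stimulation, at 493, 473 and 506 CPM with LPS, and at 341, 317 and 398 CPM with IFN-β. All 6 stimulated libraries were above all unstimulated ones, and the LPS libraries were above those of IFN-β. The log2 fold change was 2.81 ± 0.21 (SE) with LPS (edgeR adjusted p = 6.9e-07) and 2.33 ± 0.21 with IFN-β (edgeR adjusted p = 1.2e-05).

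*Eif2ak2* encodes PKR, the kinase that halts translation when it binds double-stranded RNA. It lies on chr17:78852564-78882573, minus strand, with 5.113 kb of merged exons, of which 174 bases (3.40%) are shared with the antisense transcript *Gm26637*, which was not analysed here. Its level was 125, 105 and 85.8 CPM in the A, B and C libraries without stimulation, 472, 411 and 450.4 CPM with LPS, and 335, 303 and 327 CPM with IFN-β. It had the smallest rise of the 5 sensors in both comparisons, at a log2 fold change of 2.08 ± 0.12 (SE) with LPS (edgeR adjusted p = 1.3e-07) and 1.61 ± 0.12 with IFN-β (edgeR adjusted p = 4.7e-06).

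*Mavs* encodes the adaptor on which RIG-I and MDA5 converge. It lies on chr2:131234063-131248025, plus strand, with 3.345 kb of merged exons, and no other annotated gene shares them. Its level was 37.5, 37.4 and 37.3 CPM in the A, B and C libraries without stimulation, 13.9, 16.0 and 15.5 CPM with LPS, and 28.3, 32.5 and 27.9 CPM with IFN-β. Every stimulated library was below every unstimulated one, and the LPS libraries were the lowest, with 394 to 549 counts behind each value. The log2 fold change fell by 1.30 ± 0.08 (SE) with LPS (edgeR adjusted p = 1.7e-07) and by 0.34 ± 0.08 with IFN-β (edgeR adjusted p = 0.00474). The fall with LPS placed it 2039 from the lowest of the 16260 genes, so that 12.5% of genes were at or below it, and with IFN-β 25.7% were.

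**Figure D2:**
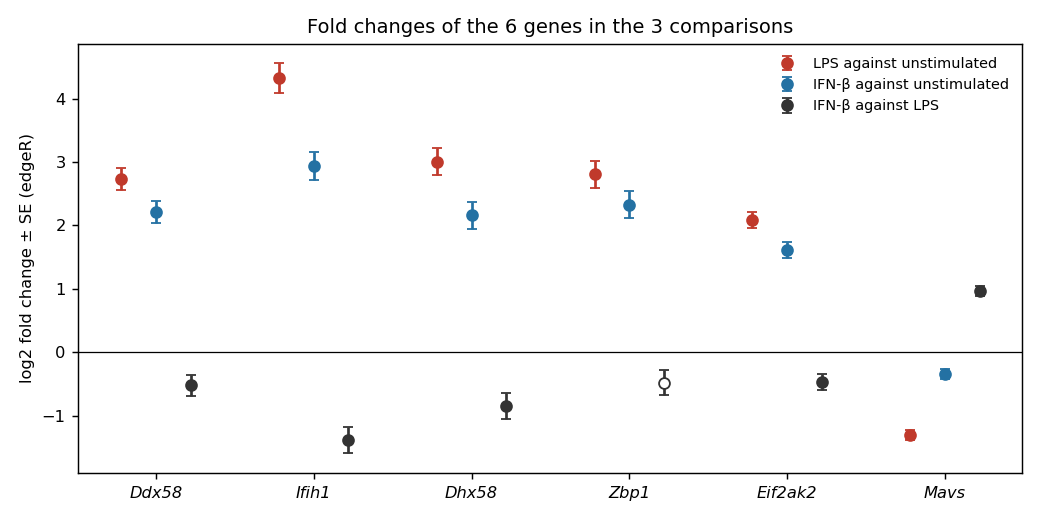
Log2 fold change of each gene in the 3 comparisons (points, edgeR) with its SE (bars), filled where the adjusted p was under 0.05. The 5 sensors lie above 0 for both stimuli against unstimulated DCs, Mavs lies below 0 for both, and the open point is Zbp1 in IFN-β against LPS.

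Unstimulated library C held the lowest level of each of the 5 sensors. The highest of the 3 unstimulated libraries, A in each case, exceeded C by 1.46-fold for *Eif2ak2*, 1.74-fold for *Ddx58*, 1.85-fold for *Ifih1*, 1.99-fold for *Zbp1* and 2.09-fold for *Dhx58*. For *Mavs* the same ratio was 1.01. Over all tested genes, library C was the lowest of the 3 for 37.0%, and among the genes called higher with IFN-β it was the lowest for 56.3%. *Irf7* showed the same order, at 228, 161 and 33.3 CPM in the A, B and C libraries without stimulation, as did *Stat2* at 239.6, 187 and 120.3 CPM. The part of this library in the sensors' fold changes can be read from the fit without it, in which the 5 sensors and *Mavs* were called for both stimuli as before. Without library C the log2 fold change with LPS was 2.75 for *Dhx58* and 2.56 for *Zbp1*, against 3.01 and 2.81 with all libraries. With IFN-β these were 1.90 and 2.09, against 2.16 and 2.33. Over the fits that left out 1 library each, the log2 fold change with LPS ran from 2.53 to 2.91 for *Ddx58*, from 4.10 to 4.51 for *Ifih1* and from -1.34 to -1.24 for *Mavs*.

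IFN-β and LPS were also compared with each other, which answers whether the 2 responses differed at these doses and this time. All 5 sensors had lower values with IFN-β than with LPS, 4 of them past the threshold, and *Mavs* was higher with IFN-β. Of all tested genes 25.8% were called higher and 23.3% lower in this comparison, and for 56.8% the groups did not overlap, which was the case for all 6 genes here. *Ifih1* had the largest difference, 2.62-fold lower with IFN-β (log2 fold change -1.39 ± 0.21 SE, edgeR adjusted p = 2.5e-04). *Dhx58* was 1.80-fold lower (-0.85 ± 0.20, edgeR adjusted p = 0.00511), *Ddx58* 1.43-fold lower (-0.52 ± 0.17, edgeR adjusted p = 0.0238) and *Eif2ak2* 1.38-fold lower (-0.47 ± 0.12, edgeR adjusted p = 0.00808). *Mavs* was 1.95-fold higher (0.96 ± 0.08, edgeR adjusted p = 4.5e-06).

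*Zbp1* did not pass the threshold in that comparison. Its log2 fold change was -0.48 ± 0.20 SE, with a 95% interval from -0.92 to -0.04 and an edgeR adjusted p = 0.0668. With the library letters as a replicate block it was -0.48 with an edgeR adjusted p = 0.0248, and was then called. *Ddx58* and *Eif2ak2* lost their calls when libraries were scaled by size alone, at -0.24 (edgeR adjusted p = 0.171) and -0.19 (edgeR adjusted p = 0.124). *Ddx58* also lost it without LPS library A (-0.47, edgeR adjusted p = 0.067), LPS library C (-0.53, edgeR adjusted p = 0.0504) or IFN-β library B (-0.45, edgeR adjusted p = 0.0875), with log2 fold changes close to the -0.52 of the fit on all libraries.

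Levels can be compared between genes only per length, here as CPM per kb of merged exons. That length takes in every annotated exon and not only those of the transcripts present. The spread between libraries does not measure the error this brings to the order of genes. Without stimulation the 6 genes lay within a narrow range, from *Eif2ak2* at 20.6 ± 3.8 (SD, n = 3) through *Zbp1* at 19.8, *Ddx58* at 18.0, *Dhx58* at 12.9 and *Mavs* at 11.2 to *Ifih1* at 9.78 ± 2.9. No neighbours in that order were separated beyond the spread of their libraries. With LPS, *Ifih1* went from last to first at 195 ± 34 CPM per kb, followed by *Zbp1* at 139, *Ddx58* at 119.6, *Dhx58* at 104 and *Eif2ak2* at 87.0, each apart from its neighbours. *Mavs* was then last at 4.53 ± 0.32. With IFN-β, *Zbp1* was first at 99.7 ± 12 CPM per kb and apart from *Ddx58* at 83.6, while *Ddx58* overlapped *Ifih1* at 74.7. *Eif2ak2* at 62.9 overlapped *Dhx58* at 57.7, and *Mavs* was last at 8.84 ± 0.76.

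**Figure D3:**
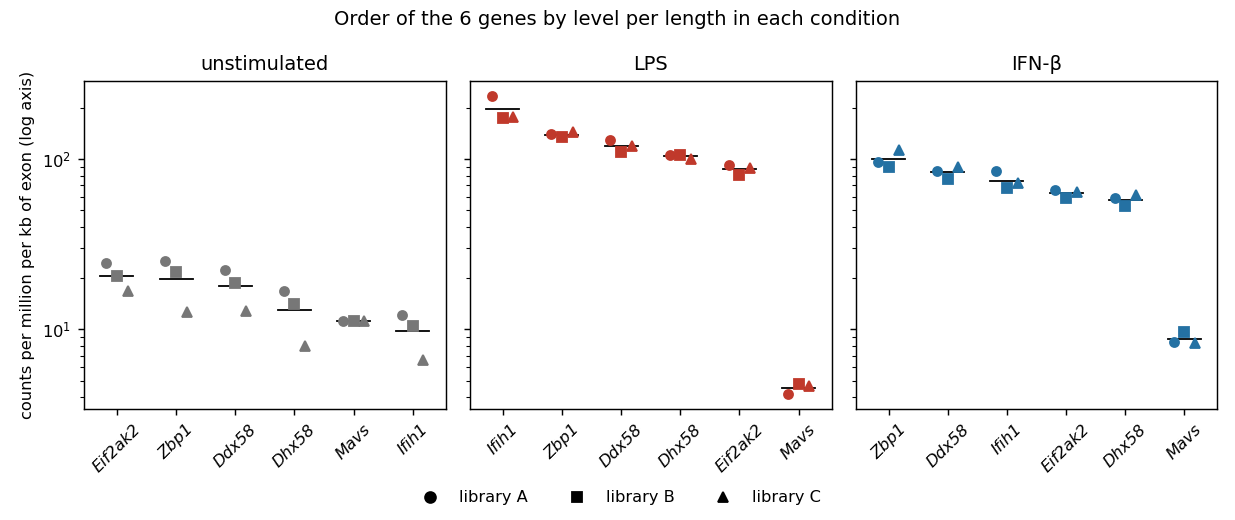
Level per length of the 6 genes (CPM per kb of exon, log axis) in each condition, ordered from highest to lowest mean, with 1 point per library and the mean as a line. Ifih1 is last without stimulation, at 9.78, and first with LPS, at 195, and Mavs is last in both stimulated conditions.

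Since the sensors rose while *Mavs* fell, the ratio of each sensor to *Mavs* was taken within each library, a quantity that does not depend on scaling between libraries. Without stimulation the mean ratio of counts per kb lay between 0.874 for *Ifih1* and 1.84 for *Eif2ak2*. For *Ifih1* it was 1.09, 0.940 and 0.592 in the A, B and C libraries without stimulation, 56.3, 36.6 and 38.0 with LPS, and 10.0, 6.96 and 8.61 with IFN-β. The mean ratio of the MDA5 transcript to that of its adaptor was thus 0.874 without stimulation and 43.6 with LPS. For *Ddx58* the ratio was 1.99, 1.67 and 1.16 without stimulation, 31.0, 23.1 and 25.6 with LPS, and 10.1, 7.85 and 10.7 with IFN-β. For *Dhx58* the unstimulated mean was 1.16 ± 0.40 (SD, n = 3), that of LPS was 23.0 ± 2.1 and that of IFN-β was 6.59 ± 1.0.

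The ratios to *Mavs* were higher with LPS by 50.5-fold for *Ifih1*, 20.8-fold for *Dhx58*, 18.0-fold for *Zbp1*, 16.8-fold for *Ddx58* and 10.6-fold for *Eif2ak2*. With IFN-β the same ratios were higher by 9.97-fold for *Ifih1*, 6.61-fold for *Zbp1*, 6.04-fold for *Ddx58*, 5.92-fold for *Dhx58* and 3.93-fold for *Eif2ak2*. In every one of these the 3 stimulated libraries lay above the 3 unstimulated ones, with an exact permutation p = 0.1, the smallest possible (two-sided, n = 3 against 3), which adjustment over the family leaves at 0.1. Against LPS, the ratios with IFN-β were lower by between 2.69-fold for *Eif2ak2* and 5.07-fold for *Ifih1*, again with no overlap of the libraries. Each of these separations followed from the levels, where every sensor and *Mavs* moved in opposite directions without overlap. The separations and their p-values are thus no further evidence, and the ratios describe sizes only. *Zbp1* and *Eif2ak2* do not signal through MAVS, and their ratios serve as a scale for the RIG-I-like receptors. For *Zbp1* the unstimulated mean was 1.77 ± 0.57 (SD, n = 3), that of LPS was 30.8 ± 2.7 and that of IFN-β was 11.4 ± 2.1.

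**Figure D4:**
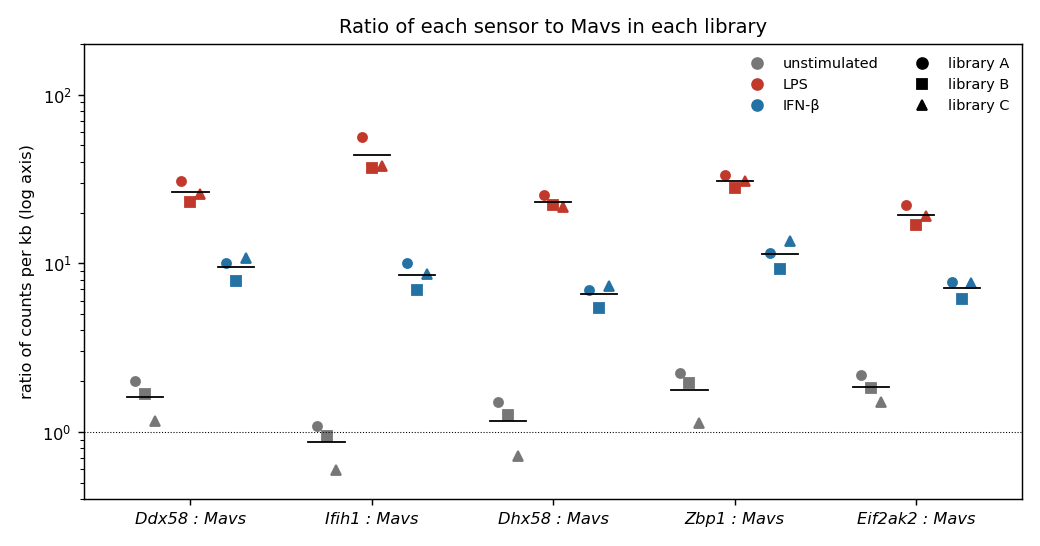
Ratio of the counts per kb of each sensor to those of Mavs within each of the 9 libraries (log axis), with the group mean as a line and a dotted line at 1. All 15 sensor values with LPS lie between 16.8 and 56.3, all with IFN-β between 5.46 and 13.5, and those without stimulation between 0.592 and 2.24.

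The balance of the 2 main RNA helicases also stood apart between groups, in a ratio chosen after its values were seen. *Ifih1* to *Ddx58*, in counts per kb, was 0.547, 0.562 and 0.513 in the A, B and C libraries without stimulation, 1.82, 1.58 and 1.48 with LPS, and 0.993, 0.888 and 0.804 with IFN-β. The unstimulated libraries were close to each other in this ratio, although library C had the lowest level of both genes. The ratio was 3.003-fold higher with LPS and 1.65-fold higher with IFN-β than without stimulation, with no overlap of libraries and an exact permutation p = 0.1 in each (n = 3 against 3). Per kb, RIG-I transcripts were the more frequent without stimulation and MDA5 transcripts with LPS. With IFN-β, RIG-I transcripts were the more frequent within each library, though barely in A, while the ranges of both genes over the libraries overlapped.

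Genes with a course over the 9 libraries most like that of each member were sought by the root mean square difference of log2 CPM, with each gene centred on its unstimulated mean. *Ddx58* and *Zbp1* were each among the 3 nearest genes of the other, at a difference of 0.12, and *Oas1b* was near to both. *Zbp1* was nearest to *Xaf1* (0.08), which was also nearest to *Dhx58* (0.12), followed there by *Parp12* and *Parp14*. *Ddx58* was nearest to *Nmi* (0.10). *Eif2ak2* was nearest to *Mitd1* (0.06), *Trim34a* and *Gvin-ps7*.

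*Ifih1* had the most distant neighbours of the 6, *AW112010* (0.21), *Ccrl2* (0.25) and *Nt5c3* (0.26). *Ccrl2* rose by a log2 fold change of 4.77 with LPS and 2.98 with IFN-β, against 4.32 and 2.93 for *Ifih1*. *Mavs* had the closest, *Atg7* (0.04), which encodes an enzyme of autophagy, *Lpgat1* (0.05) and *Ppm1m* (0.05). *Atg7* went from a mean of 89.0 CPM in unstimulated DCs to 36.5 CPM after LPS and 69.1 CPM after IFN-β. The choice of neighbours rested in part on single libraries, since 9 of the 18 were found again without unstimulated library C and 11 without unstimulated library A.

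The other genes of these pathways were followed in 7 lists, each described by its counts, to be read against the shares of all tested genes given above (32.8% higher and 35.4% lower with LPS, 23.6% and 23.3% with IFN-β, 25.8% and 23.3% between the stimuli). Median log2 fold changes over all tested genes were -0.04 with LPS, -0.02 with IFN-β and 0.02 for IFN-β against LPS. The split into higher and lower depended on the scaling in all of these lists but that of interferon signalling, as it did over all genes, where the share of calls that were higher went from 48.1% to 21.9% with LPS, from 50.3% to 22.3% with IFN-β and from 52.5% to 77.9% between the stimuli when libraries were scaled by size alone.

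Of 25 tested regulators of RIG-I and MDA5, 16 were higher and 8 lower with LPS (64.0% and 32%, median log2 fold change 0.32), and 12 were higher and 5 lower with IFN-β (48.0% and 20%, median 0.13). Scaled by library size alone, the counts were 8 higher and 16 lower with LPS and 6 higher and 13 lower with IFN-β. *Rnf135*, the ubiquitin ligase also called RIPLET that modifies RIG-I, had the largest rise, at 10.8, 9.28 and 8.93 CPM without stimulation, 59.3, 52.2 and 50.5 CPM with LPS, and 31.2, 28.1 and 34.5 CPM with IFN-β. *Trim25*, the other well-known RIG-I ligase, rose by a log2 fold change of 1.75 with LPS and 1.37 with IFN-β. Both rises kept their call under the other scalings.

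Among the regulators that fell were *Trim65*, a ligase of MDA5, and *Prkra*, whose protein PACT activates RIG-I and PKR. *Trim65* fell by 1.55 on the log2 scale with LPS (edgeR adjusted p = 2.7e-07), and *Prkra* fell by 1.02 with LPS and by 0.44 with IFN-β (edgeR adjusted p = 0.0029). *Hdac6* and the phosphatase subunit *Ppp1cc* had the largest falls of the list with IFN-β, with log2 fold changes of -0.60 and -0.54. Between the stimuli, 7 regulators were higher and 9 lower with IFN-β, or 12 and 2 with scaling by library size alone. *Trim65* had a log2 fold change of 1.2004 there, *Rnf135* of -0.79 and the regulator *Mex3c* of -0.52. The listed regulators *Rnf125*, *Usp17lb* and *Trim40* had at most 7 counts in any library and were not tested.

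Of 21 tested genes that act after MAVS, 14 were higher and 3 lower with LPS (66.7% and 14.3%, median log2 fold change 0.77), and 11 were higher and 3 lower with IFN-β (52.4% and 14.3%, median 0.23). With scaling by library size alone these were 10 higher and 9 lower with LPS and 9 higher and 6 lower with IFN-β. *Ifit3*, an interferon-induced protein that bridges MAVS and TBK1, had the largest rise (log2 fold change 5.74 ± 0.55 SE with LPS and 5.12 ± 0.54 with IFN-β). *Irf7* rose by 3.34 ± 0.53 with LPS and 3.12 ± 0.52 with IFN-β, and its unstimulated libraries spread from 33.3 to 228 CPM.

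The kinases that MAVS recruits rose with both stimuli and more with LPS. *Tbk1* was at 90.2, 92.1 and 87.7 CPM without stimulation, 264.5, 243 and 241 CPM with LPS, and 169, 159 and 164 CPM with IFN-β. *Ikbke*, which encodes IKKε, rose by a log2 fold change of 1.68 ± 0.09 with LPS and 0.99 ± 0.09 with IFN-β. Between the stimuli *Tbk1* was lower with IFN-β by -0.61 and *Ikbke* by -0.69, both past the threshold. *Irf3*, the transcription factor that these kinases activate, had a log2 fold change of -0.15 ± 0.08 with LPS (edgeR adjusted p = 0.11) and fell by 0.30 ± 0.08 with IFN-β (edgeR adjusted p = 0.00729).

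The remaining changes in the list were uneven. *Tank* and *Ikbkb* were the genes most lowered in IFN-β against LPS, by -1.18 and -1.14, and *Tbkbp1* was the 1 gene of the list called higher there. *Tbkbp1* fell by 0.71 and *Sike1*, a suppressor of IKKε, fell by 0.38 with LPS, while *Dok3*, with the largest decrease under IFN-β, fell by 0.46. In all, 1 gene was higher and 8 lower with IFN-β than with LPS, or 6 and 8 with scaling by library size alone.

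Of 8 tested partners of ZBP1, 4 were higher and 2 lower with LPS, and 4 were higher and 1 lower with IFN-β, a list too small for its shares to be set against those of all genes. Scaled by library size alone, these were 4 higher and 4 lower with LPS and 4 and 2 with IFN-β. *Mlkl*, which encodes the pore-forming executioner of necroptosis, was at 35.6, 34.6 and 24.6 CPM without stimulation, 266, 238 and 231 CPM with LPS, and 167, 151 and 164 CPM with IFN-β. *Ripk3*, the kinase between ZBP1 and MLKL, went the other way with LPS, at 44.4, 41.7 and 44.8 CPM without stimulation and 21.8, 22.6 and 21.8 CPM with LPS (log2 fold change -0.99 ± 0.06 SE, edgeR adjusted p = 1.7e-07). With IFN-β *Ripk3* was at 44.9, 43.6 and 47.1 CPM, a log2 fold change of 0.05 ± 0.06 (edgeR adjusted p = 0.527). The transcripts of sensor and executioner therefore rose together with LPS while that of the kinase that links them was lower, and between the stimuli *Ripk3* was higher with IFN-β by 1.04 ± 0.06.

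*Cflar*, whose product holds caspase-8 in check, had the largest rise among the ZBP1 partners with LPS, by a log2 fold change of 3.32 ± 0.10 against 1.66 ± 0.10 with IFN-β. *Casp6* fell by 1.11 with LPS and by 0.75 with IFN-β. *Adar*, whose enzyme edits double-stranded RNA and restrains ZBP1, MDA5 and PKR, was at 182, 164 and 129.6 CPM without stimulation, 618, 603 and 543 CPM with LPS, and 364, 357 and 372 CPM with IFN-β. It rose by 1.89 ± 0.12 and 1.199 ± 0.11 on the log2 scale. Between the stimuli 2 of the 8 partners were higher and 4 lower with IFN-β (4 and 3 with scaling by library size alone).

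Of 21 tested genes of the PKR axis, 8 were higher and 9 lower with LPS (38.1% and 42.9%, median log2 fold change -0.01), and 6 were higher and 8 lower with IFN-β (28.6% and 38.1%, median -0.04). The shares of higher genes were near those of all genes. The shares of lower genes were above them, at 42.9% against 35.4% with LPS and 38.1% against 23.3% with IFN-β. With scaling by library size alone the counts were 4 higher and 16 lower with LPS and 4 higher and 13 lower with IFN-β. *Eif2s1*, which encodes the PKR substrate eIF2α, was at 63.8, 69.1 and 65.4 CPM without stimulation, 90.4, 85.3 and 86.9 CPM with LPS, and 65.9, 69.9 and 71.1 CPM with IFN-β. Its rise of 0.40 with LPS turned to -0.18 with scaling by library size alone (edgeR adjusted p = 0.0316), and with IFN-β it was 0.06 (edgeR adjusted p = 0.432). Of the other eIF2α kinases, *Eif2ak3*, known as PERK, fell by 1.57 ± 0.09 with LPS and *Eif2ak4*, known as GCN2, fell by 0.21 (edgeR adjusted p = 0.0263), while *Eif2ak1*, known as HRI, had a log2 fold change of 0.12 and was not called. The last 2 are named to complete the family and were chosen after their values were seen.

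*Ppp1r15b*, whose product directs the phosphatase that reverses eIF2α phosphorylation, rose by 1.70 ± 0.12 with LPS. It was lower in IFN-β than in LPS by -0.98, as was its relative *Ppp1r15a* by -0.72, whereas *Trib3* was higher by 1.197. *Atf3* was among the largest rises of the list with IFN-β, by 1.15 ± 0.12, and the eIF2B subunits *Eif2b3* and *Eif2b1* had the largest falls with IFN-β, with log2 fold changes of -1.13 and -0.75. Between the stimuli, 4 genes of the axis were higher and 9 lower with IFN-β, or 10 and 4 with scaling by library size alone.

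Other RNA helicases linked to sensing were mostly outside the range of the 5 sensors. Of 16 such helicases, 6 were higher and 4 lower with LPS (37.5% and 25%, median log2 fold change 0.06) and 5 were higher and 5 lower with IFN-β (31.2% each, median -0.01), shares not far from those of all genes in a list of this size. With scaling by library size alone these were 2 higher and 11 lower with LPS and 1 higher and 9 lower with IFN-β. *Ddx60*, an interferon-induced helicase, rose by 3.75 ± 0.26 (SE) with LPS and 3.12 ± 0.25 with IFN-β, in the range of the 5 sensors. The next largest rises were 0.79 for *Skiv2l* with LPS and 0.42 for *Ddx5* with IFN-β (0.11 and not called with scaling by library size alone, edgeR adjusted p = 0.213), and the largest falls were those of *Dhx29* (log2 fold change -0.86 with LPS and -0.48 with IFN-β) and *Ddx21* (-0.67 and -0.72). Between the stimuli 1 was higher and 6 lower, in all 7 calls, which became 11 with the replicate block and 7 higher and 0 lower with scaling by library size alone.

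The list of cytosolic DNA sensing genes gives a comparison with the sensors of DNA. Of 24 tested genes, 8 were higher and 13 lower with LPS (33.3% and 54.2%, median log2 fold change -0.39), and 7 were higher and 11 lower with IFN-β (29.2% and 45.8%, median -0.21). When scaled by library size alone, 5 were higher and 18 lower with LPS, and 5 higher and 16 lower with IFN-β. *Cgas*, the enzyme that makes the messenger cGAMP on DNA, was at 18.7, 19.7 and 18.5 CPM without stimulation, 50.8, 40.0 and 40.3 CPM with LPS, and 43.96, 42.6 and 42.1 CPM with IFN-β. Its log2 fold change between the stimuli was -0.03 ± 0.09 (edgeR adjusted p = 0.833).

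*Sting1*, the adaptor for cGAS, was at 83.9, 88.8 and 93.8 CPM without stimulation, 41.6, 51.0 and 48.2 CPM with LPS, and 92.2, 97.6 and 118 CPM with IFN-β. It fell with LPS by 0.92 ± 0.10 (edgeR adjusted p = 1.7e-05) and had a log2 fold change of 0.21 ± 0.10 with IFN-β (edgeR adjusted p = 0.124). Both adaptors, *Mavs* and *Sting1*, were thus lower with LPS while *Ddx58*, *Ifih1* and *Cgas* were higher. This does not extend to the DNA sensing list, where 8 genes were higher and 13 lower with LPS. Of the 2 adaptors, *Mavs* alone was called lower with IFN-β. *Sting1* was higher with IFN-β than with LPS by 1.13 ± 0.11, against 0.96 ± 0.08 for *Mavs*.

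*Ifi204*, a DNA-binding interferon-inducible protein, had the largest rise of that list, by 3.55 ± 0.33 with LPS and 3.20 ± 0.32 with IFN-β, followed by *Samhd1* with 1.95 and 1.83. *Aim2* was lower with IFN-β than with LPS by -0.54, as was *Polr3c* by -0.56. The largest falls were *Polr3g*, a subunit of RNA polymerase III, with log2 fold changes of -2.94 with LPS and -1.69 with IFN-β, and *Xrcc6*, which encodes Ku70, with -2.75 and -1.54. Both were higher with IFN-β than with LPS, by 1.24 and 1.21. In all 9 genes were higher and 5 lower between the stimuli, or 12 and 3 with scaling by library size alone. *Trex1* had 0 counts in every library and was not tested, and its annotated span lies inside that of *Atrip* on the same strand.

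**Figure D5:**
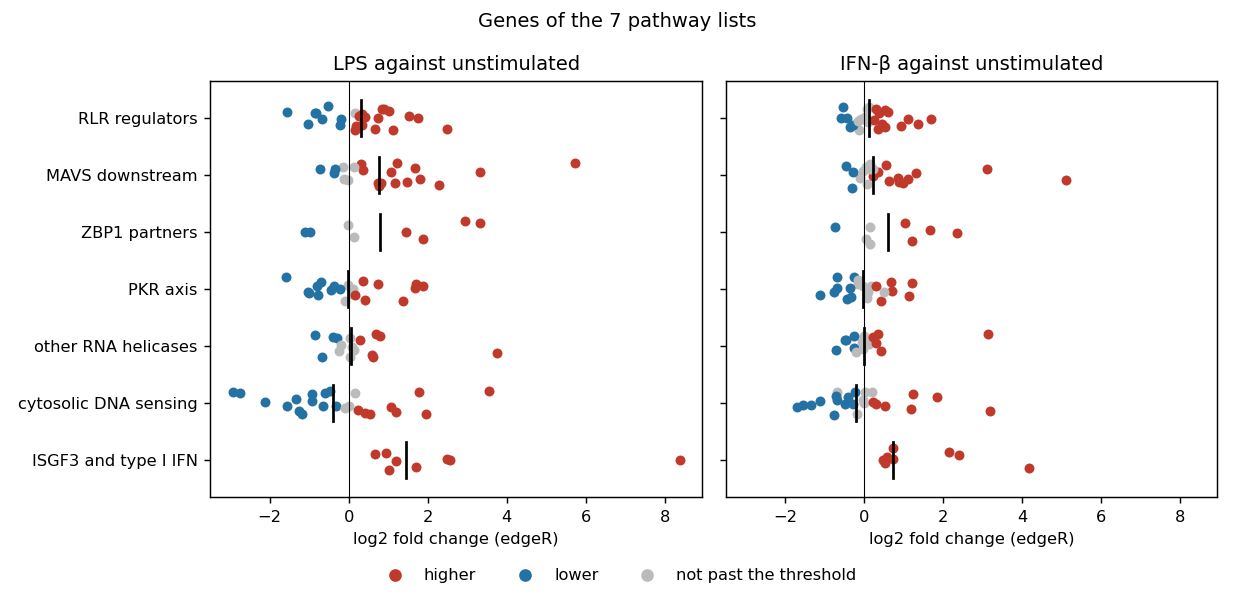
Log2 fold change (edgeR) of every tested gene of the 7 lists with LPS and with IFN-β against unstimulated DCs, coloured by whether the gene was called higher, lower or not, with the list's median as a black line and points spread vertically for display. The interferon signalling list has all 8 genes called higher in both panels. Its point farthest to the right is Ifnb1, whose unstimulated libraries held 0, 0 and 1 counts and which passed the filter only through its LPS libraries.

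All 8 genes of the list of ISGF3, the interferon receptor, its kinases and *Ifnb1* were higher with LPS (median log2 fold change 1.45) and with IFN-β (median 0.74), and 7 of them with scaling by library size alone. *Ifnb1* passed the filter on low counts only through its LPS libraries, and its IFN-β libraries held 9, 5 and 9 counts. Its place in the count for IFN-β thus rests on a group outside that comparison. With LPS its call rests on the group that let it be tested, so it adds no support to that count. *Stat2* rose by 2.48 ± 0.20 with LPS and 2.15 ± 0.20 with IFN-β, and *Irf9* by 1.199 ± 0.11 and 0.74 ± 0.11. The transcripts of these ISGF3 subunits thus rose beside those of the sensors. Between the stimuli *Stat2* had a log2 fold change of -0.33 ± 0.19 (edgeR adjusted p = 0.176), while *Irf9* was lower with IFN-β by -0.46 ± 0.11 (edgeR adjusted p = 0.00565) but not with scaling by library size alone.

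*Ifnb1*, the gene for IFN-β itself, had 0, 0 and 1 counts in the A, B and C libraries without stimulation, 137, 117 and 93 with LPS, and 9, 5 and 9 with IFN-β. Its transcript was thus rare even with LPS at 6 h. It was lower in IFN-β-treated than in LPS-activated DCs by -4.20 ± 0.33 on the log2 scale (edgeR adjusted p = 2.5e-06). As the gene was kept through its high LPS counts, this p-value is not separate support for a difference. *Ifnar2*, a chain of the receptor, was lower with IFN-β than with LPS by -1.17 ± 0.10. In all 0 genes of the list were higher and 5 lower, *Ifnb1* included, with IFN-β than with LPS, and 2 were lower with scaling by library size alone.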

How the data were processed

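The authors prepared ribosomal RNA-depleted libraries, trimmed the reads with Trim Galore 0.6.0, mapped them to GRCm38 with STAR 2.7.8a (per the labels' processing notes) and counted them per gene. What was deposited are raw counts of reads on each gene, not normalized. The strand setting of the counting is not given in the sources used here, so reads of a gene and of its antisense partner cannot be told apart.

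The analysis ran in R 4.3.3 with edgeR 4.0.16 (limma 3.58.1) and took its model from the study's methods. TMM factors, filterByExpr (16260 of 55471 genes kept), 1 term per condition over all 9 libraries, quasi-likelihood F-tests and Benjamini-Hochberg adjustment over all tested genes were used, with an adjusted p under 0.05 as the threshold. The SE is the absolute log2 fold change divided by the square root of F. Levels per kb use merged exons of GENCODE M21, which had entries for 55144 of the genes. Within-library ratios were compared by exact permutation tests. The code of the fit was tried on simulated counts in which few genes changed and neither composition nor library letter had an effect. These data differ on each of those points, so that trial does not cover them.

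Libraries of a group differed by more than sampling noise (chi-square per degree of freedom 13.5 to 37.1). After subtraction of group means, same-letter libraries correlated at 0.115 to 0.470 across genes (9 pairs) and different-letter libraries at -0.400 to 0.028 (18 pairs). Every same-letter pair was above 0.1, so the letters were taken to pair the libraries, from this check and not from the labels. The replicate block was run as an alternative. The remaining alternatives were upper-quartile factors or plain library sizes in place of TMM, DESeq2 1.42.0, a minimum of 10 counts in every library or no filter, a fit on only the compared groups, and each library left out in turn.

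Members and pathway lists were chosen with earlier results of these data known. The genes named are the 6 members, the 2 largest rises and 2 largest falls of each list past the threshold in each comparison, 17 fixed pathway genes and the 3 nearest patterns of each member. The listed symbols *March5* and *Ddit3* were not matched. Promoter sequences are those of RefSeq. One of the fixed genes is not reported here.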

Additional observations from a re-analysis of the deposited data

How the results depend on the processing

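Over the 16 alternative settings, all 6 genes were called with LPS and with IFN-β in every fit, and of 288 alternative fold changes 277 kept their direction and side of the threshold, 0 reversed, 5 lost a call and 6 gained one. All 11 changes were in IFN-β against LPS, where 5 of the 6 genes were called in the fit reported, 3 with scaling by library size only, and 4 to 6 when 1 library was left out. *Zbp1* gained its call with the replicate block (edgeR adjusted p = 0.0248), which changed no other call of the 6 genes, with DESeq2 (adjusted p = 0.0244), with no filter on low counts (0.00502), with only the groups compared (0.00347), and without unstimulated library A (0.0385) or C (0.00193). Its adjusted p over all alternatives reached 0.352. The total calls of a list moved by over 1.5 times only in that comparison, while the split into higher and lower moved in all 3 with scaling by library size only. With scaling by library size only, 14 genes after MAVS were called in place of 9 and 2 of the interferon signalling list in place of 5, and with the replicate block 11 other helicases were called in place of 7. Of the 18 nearest patterns, 9 to 17 were found again when 1 library was left out. The ISRE core was found in 0 of the 4 promoters when only the bases before the start were searched, against 3 in the whole window. The cause of these changes was not tested. The depth put at least 394 counts behind every value of the 6 genes, and the SEs and the interval come from the fit and include the spread between libraries.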
